A study of Homo sapiens with 4 samples.

Results

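The genes described here are 9 writers, erasers and readers of DNA methylation, chosen by gene symbol: DNMT1, UHRF1, HELLS, DNMT3A, DNMT3B, TET1, TET2, TET3 and MBD2. They are 9 of 77973 genes in the deposited gene table. Testing required an average of 5 reads per library, which 13789 genes reached, and all 9 did so with an average above 20.

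Full-length complementary DNA was sequenced on the PacBio Iso-Seq platform from cortical neurons induced from KOLF2.1J, an established human line of induced pluripotent stem cells. All groups shared the same engineered line, in which doxycycline (2 µg/mL) switches on the neuronal factor NGN2 and a dCas9-BFP-KRAB repressor for CRISPR interference is always on. The control carried a non-targeting guide RNA, and the TDP-43 knockdown carried a guide against the gene of the RNA-binding protein TDP-43. Another culture, labelled Ctrl like the control, received 5 µM 5-azacytidine for 72 hours after plating on day 8. The last received both the knockdown and azacytidine. Each group was 1 library of polyadenylated RNA from a stable pool of transduced cells, and nothing below could be checked against replicates. Cultures were harvested on day 12 or 15, and which day applied to which library was not given in the sources used here.

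Cytosines in CpG pairs are methylated anew by DNMT3A and DNMT3B, and the pattern is copied after DNA replication by DNMT1, which is brought to hemimethylated sites by UHRF1 and helped by the chromatin remodeller HELLS. TET enzymes oxidise the methyl group and so start its removal, and proteins such as MBD2 bind methylated CpG and recruit repressors. 5-azacytidine is a cytosine analogue that enters RNA and, in replicating cells, DNA, where it traps the DNMT enzymes.

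The libraries held 466337 to 767621 reads assigned to genes, and 58.5% to 68.1% of these reads were assigned to transcripts. Levels are CPM, reads scaled to a common effective library size, and a log2 ratio compares 2 libraries with 0.5 reads added to each. Azacytidine was read in 2 pairs, azacytidine against control and both treatments against knockdown, and the knockdown in 2 others, knockdown against control and both treatments against azacytidine. The pairs of one treatment share libraries with those of the other. A gene was called when edgeR's exact binomial test gave an adjusted p under 0.05 and an absolute log2 ratio of at least 1 in the same direction in both pairs. TARDBP, the gene of TDP-43, gave 104 control reads against 72 with the knockdown, and 73 azacytidine reads against 43 with both. The log2 ratios were -0.78 and -0.73 (exact binomial adjusted p = 0.00681 and 0.0738). The targeted gene was thus lower in both libraries labelled as knockdown, but neither ratio reached the size needed for a call. The second pair also missed the adjusted p. The labelled cell type was checked with the neuronal gene MAP2, with 540, 761, 319 and 162 reads (order: control, knockdown, azacytidine, both, as in every such series of 4 values below), while the pluripotency factor POU5F1 had 2, 0, 2 and 0 reads. Of 10 pluripotency markers listed, 5 had enough reads to test. The highest, LIN28A, an RNA-binding protein named after its values were seen, had 129, 200, 99 and 121 reads. Like POU5F1, the markers NANOG (0, 0, 2 and 0 reads), L1TD1, TDGF1 and ZFP42 were too low to test.

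With azacytidine, UHRF1 and HELLS fell in both pairs, by 10.2-fold and 49.5-fold in CPM for UHRF1, of which the last rests on 2 reads, and by 8.24-fold and 7.12-fold for HELLS. DNMT1, the enzyme that UHRF1 recruits, did not pass the test in either pair, and neither did DNMT3A. DNMT3B, TET1 and TET2 each passed in 1 pair only, and TET3 and MBD2 in none. With a trend of the ratios with transcript length removed, DNMT3A and TET3 also passed, higher in the second pair, and TET2 passed in the first pair in place of the second, with values among the additional observations. By the adjusted p alone, 3 of 9 genes were lower and 0 higher in the pair without the knockdown, where 12.7% and 8.78% of all genes were, and 4 were lower and 0 higher in the pair with it, where 19.5% and 14.5% were. The full rule called 2 of 9 genes lower and 0 of 9 higher, where over all genes it called 8.75% (2.56% higher and 6.19% lower). With the knockdown it called 0 of 9 genes, against 0.754% of all genes.

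**Figure D1:**
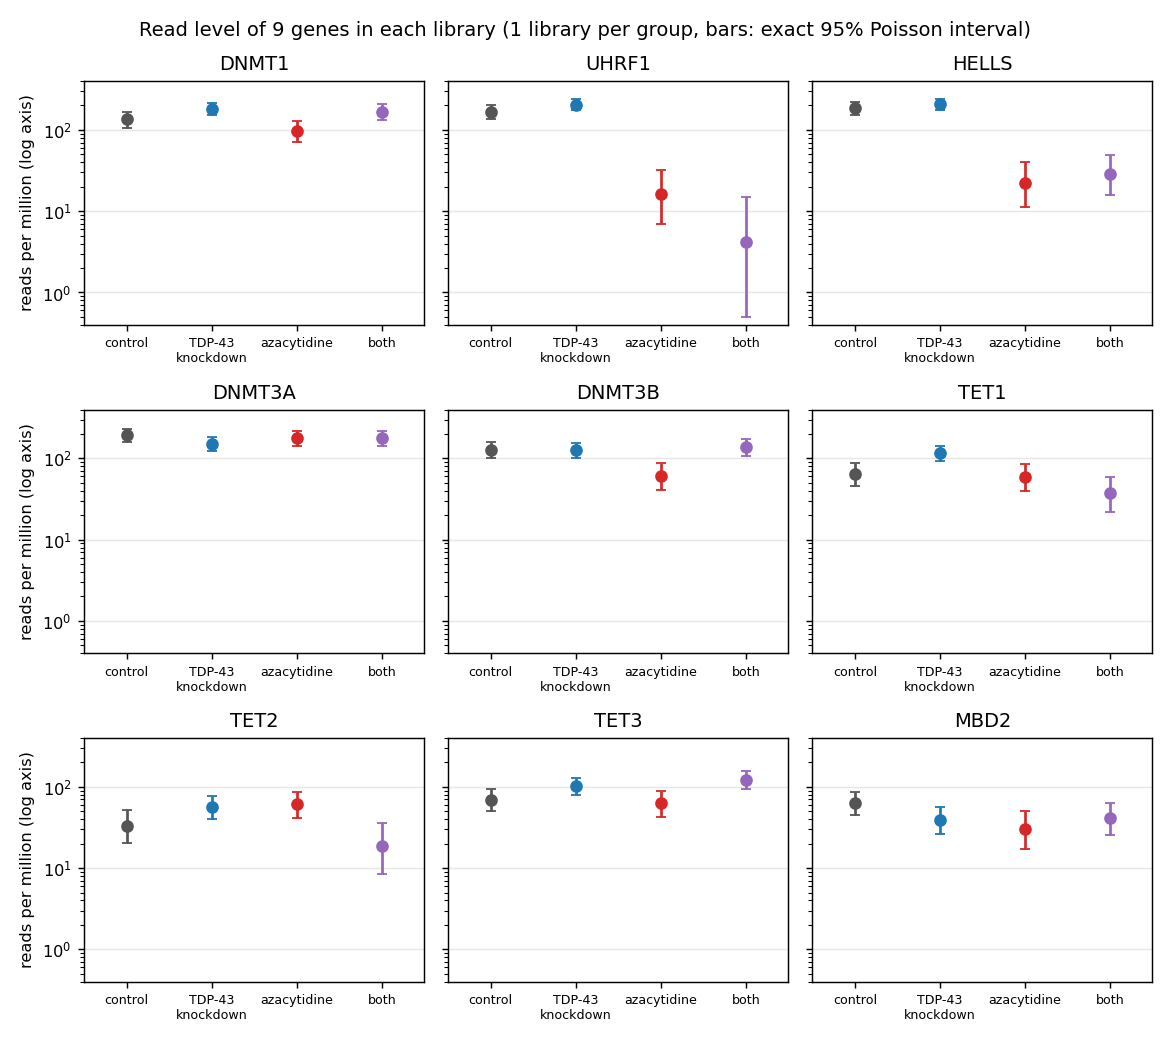
Read level of each of the 9 genes in the 4 libraries, in CPM on a log axis, with exact 95% Poisson intervals that cover counting error only. UHRF1 and HELLS sit between 166 and 207 CPM in the libraries without azacytidine and between 4.15 and 29.1 CPM in those with it.

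UHRF1 (ENSG00000276043.5, chr19:4903080-4962154, hg38, plus strand) encodes the protein that recognises hemimethylated CpG and brings DNMT1 to it. It had 100 reads in the control (166 CPM, 95% interval 135 to 202), 147 in the knockdown (206 CPM, 174 to 242), 8 with azacytidine (16.3 CPM, 7.04 to 32.1) and 2 with both treatments (4.15 CPM, 0.503 to 15.0). Both libraries with azacytidine were far below both libraries without it, with no overlap of the counting intervals, while the 2 treated libraries overlapped each other. The log2 ratio was -3.27 against the control (95% interval -4.60 to -2.32, exact binomial adjusted p = 2.73e-15) and -5.31 against the knockdown (-8.69 to -3.75, exact binomial adjusted p = 8.82e-28). In bulk RNA, fewer cells of a type and less RNA per cell cannot be told apart.

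By estimated reads, most UHRF1 transcript reads were assigned to starts within 1 short stretch. The start cluster at 4909430 to 4909501 held 57 of 66 transcript reads in the control, 68 of 84 in the knockdown, 7 of 8 with azacytidine and 1 of 2 with both. The 3 annotated transcripts that begin there (UHRF1-205, UHRF1-207 and ENST00000650932) received exactly equal shares and 0 uniquely assigned reads, so the reads did not tell them apart. UHRF1-203, which begins at 4910146, held an estimated 7, 15, 1 and 1 reads. Of full-length reads it had 20 in all, against 11.3 for each of these 3 transcripts, and 21 of its reads were uniquely assigned.

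HELLS (ENSG00000119969.16, chr10:94545329-94613905, hg38, plus strand) encodes a SNF2-type remodeller that opens nucleosomal DNA to the methylation machinery. It had 111 reads in the control (185 CPM, 152 to 222), 148 in the knockdown (207 CPM, 175 to 243), 11 with azacytidine (22.4 CPM, 11.2 to 40.1) and 14 with both (29.1 CPM, 15.9 to 48.7). As for UHRF1, the treated and untreated libraries did not overlap in their counting intervals, and within each kind they did. The log2 ratio was -2.98 against the control (-4.09 to -2.15, exact binomial adjusted p = 1.24e-15) and -2.79 against the knockdown (-3.74 to -2.04, exact binomial adjusted p = 2.57e-17).

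HELLS transcript reads were assigned mainly to 3 annotated transcripts. HELLS-202, which codes for 838 residues, had an estimated 22.8, 19.6, 1 and 2.87 reads. HELLS-207, which starts upstream at 94545329 and has an annotated coding part of 192 codons, had 13.5, 23.1, 2 and 2.5. HELLS-203, which begins inside the gene at 94588229 and codes for 310 residues, had 18.1, 25.1, 3 and 4. Full-length reads in all were 16 for HELLS-202, 10 for HELLS-207 and 0 for HELLS-203, which had 48 uniquely assigned reads. Its share of HELLS transcript reads was 25.7%, 31.2%, 37.5% and 30.8%, and the exact Fisher adjusted p was 1 in both azacytidine pairs, so all 3 forms were low with azacytidine and no change in this share passed.

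The promoter windows of UHRF1 and HELLS were searched for an element known from cell cycle genes. E2F-type octamers (TTTCCCGC, TTTGGCGC, TTTCGCGC or TTTGCCGC on either strand) occurred in 3.31% of 35116 RefSeq promoter windows, each of 250 bases before and 50 after a start (GRCh38.p14). By gene, 3.99% of 27305 genes had one in at least 1 of their windows. Among the 9 genes, 3 did: UHRF1, HELLS and DNMT1. Another cell cycle element, the CHR (TTTGAA or TTCGAA on either strand, in 19.5% of all genes), was found in 3 of 9, DNMT3A, TET2 and MBD2, and in neither UHRF1 nor HELLS. The E2F-type matches are shown in capitals with 11 bases on each side, 5′ to 3′ on the strand of the gene, and the coordinates are those of the capitals. A match is a run of letters and not a measured binding site. Each match lies downstream of another start to which reads were assigned. These starts are 10195135 for DNMT1-201, 4909430 for UHRF1-205 and 94545329 for HELLS-207.
UHRF1, position -14 from the start, chr19:4909487-4909494: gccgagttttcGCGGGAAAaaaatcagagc
UHRF1, second start, position -160, chr19:4909984-4909991: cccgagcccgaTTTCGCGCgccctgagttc
HELLS, position -8, chr10:94545780-94545787: gatgacaggatTTTCCCGCgaaggagaagc
HELLS, position -76, chr10:94545712-94545719: aaccgcaagctGCGCCAAAtctcgcgcagc
DNMT1, position -2, chr19:10194948-10194955: catcggtttccGCGCGAAAagccggggcgc

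DNMT1 carried such a match but was not called. DNMT1 (ENSG00000130816.17, chr19:10133342-10231286, hg38, minus strand), the maintenance methyltransferase, had 81 reads in the control (135 CPM, 107 to 167), 130 in the knockdown (182 CPM, 152 to 216), 47 with azacytidine (95.7 CPM, 70.3 to 127) and 81 with both (168 CPM, 134 to 209). The order from high to low was knockdown, both, control and azacytidine, and the counting intervals of neighbours in that order overlapped. The azacytidine log2 ratios were -0.49 (-1.04 to 0.04, exact binomial adjusted p = 0.182) and -0.11 (-0.53 to 0.30, exact binomial adjusted p = 0.762). Neither interval reaches the ratios measured for UHRF1 or HELLS.

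The main DNMT1 transcripts were DNMT1-201, with an estimated 28.9, 37.7, 22.1 and 22.4 reads, and DNMT1-202, with 8.43, 15.2, 5.26 and 11.2.

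DNMT3A (ENSG00000119772.19, chr2:25227855-25342590, hg38, minus strand), a de novo methyltransferase, had overlapping read levels in the 4 libraries. It had 116 reads in the control (193 CPM, 159 to 231), 109 in the knockdown (152 CPM, 125 to 184), 87 with azacytidine (177 CPM, 142 to 219) and 86 with both (178 CPM, 143 to 220). The azacytidine log2 ratios were -0.12 (-0.54 to 0.29, exact binomial adjusted p = 0.774) and 0.23 (-0.20 to 0.65, exact binomial adjusted p = 0.432). The estimated transcript form of these reads did differ in the first pair.

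The gene has upstream starts, which give the long protein (912 codons in DNMT3A-201 and DNMT3A-202), and an internal start, which gives the short form known as DNMT3A2 (723 codons in DNMT3A-203 and 689 in DNMT3A-205). The internal starts, 25252132 to 25252311, were assigned an estimated 28 of 77 transcript reads in the control (36.4%, Wilson interval 26.5% to 47.5%). In the knockdown they held 19 of 66 (28.8%, 19.3% to 40.6%). They held 42 of 60 with azacytidine (70.0%, 57.5% to 80.1%) and 25 of 46 with both (54.3%, 40.2% to 67.8%). The share was higher with azacytidine by 33.6 percentage points against the control (Fisher's exact test, adjusted p = 0.00481). It was higher by 25.6 points against the knockdown (exact Fisher adjusted p = 0.0942), so only the first pair passed. Uniquely assigned reads numbered 5, 6, 8 and 4 for DNMT3A-203 and 10, 3, 13 and 5 for DNMT3A-205. The long DNMT3A-201 had 2, 3, 0 and 0, and DNMT3A-202 had 3, 0, 1 and 2. Full-length reads in all were 22 and 30 for these short forms against 5 and 3 for the long ones. By these read kinds the short forms were ahead of the long ones in the control too, unlike by estimated reads. With starts grouped within 1000 bases, a window chosen after seeing the data, 0 of 11 start groups of the genes were called with azacytidine and 0 with the knockdown, against 1.14% and 0.4% of all groups.

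With starts grouped within 100 bases, as the main setting does, 1 of 19 start clusters in 8 of the genes was called with azacytidine, where 1.16% of 7865 clusters were called over all genes. The call was the most upstream DNMT3A start, at 25342590, which held 20 of 77 reads in the control, 45 of 65 in the knockdown, 0 of 61 with azacytidine and 1 of 45 with both (adjusted p = 2.15e-04 and 2.82e-11, Fisher's exact test). At the level of transcripts, 1 of 31 was called, against 1.12% of 15469, and it was DNMT3A-201 from the same start, with 0 of 61 and 0 of 45 reads in the treated libraries, which allows shares of up to 4.92% and 6.67%. DNMT3A-202, which begins at 25341925 and codes for the same protein length, had 29 of 78, 0 of 65, 18 of 61 and 19 of 45 reads. The 2 long transcripts had 5 and 6 uniquely assigned reads in all, so the split between these neighbouring starts rests on how shared reads were divided. With uniquely assigned reads alone, 7 transcripts of 3 genes had enough reads to be tested and 0 were called.

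The RefSeq sequence before the DNMT3A starts is printed because the estimated start shares differed between these promoters in the first pair. Of 300-base windows, that at the long start 25341925 held 46 CpG and that at the internal start 25252315 held 28, against a median of 14 over all windows. Both lay above the median, the first at the 97.6th percentile and the second at the 75.8th. Neither held an E2F-type match, so the letters are in lower case throughout. Windows at the other long starts held 18 CpG at 25342590, the start called above, and 26 at 25342483. Those at the other internal starts held 18 at 25252131 and 26 at 25252263. The windows with 18 lay at the 57.1th percentile and those with 26 at the 71.8th.
DNMT3A long form, chr2:25341926-25342175, minus strand: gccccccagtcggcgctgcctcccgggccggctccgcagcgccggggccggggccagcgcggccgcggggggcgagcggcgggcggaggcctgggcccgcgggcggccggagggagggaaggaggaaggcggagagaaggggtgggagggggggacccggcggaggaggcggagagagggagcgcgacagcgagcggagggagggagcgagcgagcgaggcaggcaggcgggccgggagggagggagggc
DNMT3A short form, chr2:25252316-25252565, minus strand: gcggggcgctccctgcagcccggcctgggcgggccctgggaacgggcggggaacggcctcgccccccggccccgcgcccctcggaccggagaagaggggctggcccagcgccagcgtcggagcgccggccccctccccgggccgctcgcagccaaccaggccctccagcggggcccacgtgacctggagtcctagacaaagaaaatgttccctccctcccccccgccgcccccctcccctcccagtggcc

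DNMT3B (ENSG00000088305.19, chr20:32762385-32809359, hg38, plus strand), the other de novo enzyme, was low in 1 library by gene reads. It had 77 reads in the control (128 CPM, 101 to 160), 90 in the knockdown (126 CPM, 101 to 155), 30 with azacytidine (61.1 CPM, 41.2 to 87.2) and 66 with both (137 CPM, 106 to 174). The library with azacytidine alone stood below the other 3, whose intervals overlapped. Reads assigned to transcripts did not show this, with 48, 62, 20 and 28. They were 62.3%, 68.9%, 66.7% and 42.4% of the gene reads. Sums of these reads gave azacytidine log2 ratios of -1.05 and -0.58 (exact binomial adjusted p = 0.0506 and 0.206). The azacytidine log2 ratio was -1.05 against the control (-1.73 to -0.44, exact binomial adjusted p = 0.00386) and 0.13 against the knockdown (-0.36 to 0.60, exact binomial adjusted p = 0.763), so the gene was not called. The difference between these ratios passed an exact test, as it did for TET2 and for 6.43% of all genes, and its values are given among the additional observations.

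DNMT3B reads were mostly of forms without exons 21 and 22. Reads were counted by the transcript they were assigned to, whether or not a read covered the exon. Numbered as in DNMT3B-202, these 2 coding exons were in 7 of 48 estimated reads in the control (14.6%, Wilson interval 7.25% to 27.2%). The counts were 7 of 62 in the knockdown (11.3%, 5.58% to 21.5%) and 1 of 20 with azacytidine (5%, 0.888% to 23.6%). Both treatments gave 2 of 28 (7.14%, 1.98% to 22.7%). Exon 10 was in 3 of 48, 3 of 62, 0 of 20 and 0 of 28 reads. In every library the forms with these exons were the minority, and the intervals of the 4 libraries overlapped. Exons 21 and 22 encode part of the catalytic domain, and forms that skip them are known as inactive forms common in differentiated cells. Neither has a length that is a multiple of 3, and skipping both keeps the reading frame.
DNMT3B exon 10, chr20:32793536-32793595, plus strand: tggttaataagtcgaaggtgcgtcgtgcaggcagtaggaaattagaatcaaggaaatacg
DNMT3B exon 21, chr20:32805338-32805407, plus strand: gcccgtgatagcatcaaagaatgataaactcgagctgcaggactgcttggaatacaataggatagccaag
DNMT3B exon 22, chr20:32806209-32806327, plus strand: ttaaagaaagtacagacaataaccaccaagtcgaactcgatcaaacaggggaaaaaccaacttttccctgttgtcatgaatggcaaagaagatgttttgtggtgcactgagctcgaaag

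Summed over the libraries, the 2 DNMT3B transcripts with most reads were not in the reference annotation. BambuTx3502 had an estimated 11.8, 18.1, 9.53 and 17.2 reads, and BambuTx3503 had 16.3, 6.95, 7.12 and 4.09. Both begin at 32779849, 3 bases from the annotated start of DNMT3B-201, and skip exons 10, 21 and 22. The next, the annotated DNMT3B-203 of 770 codons, had 8.29, 20.8, 0 and 2.26 reads and was ahead of both in the knockdown library. BambuTx3502 also skips exon 5, a coding exon of 126 bases that is printed below. By assigned transcript, exon 5 was in 32 of 48 estimated reads in the control (66.7%, 52.5% to 78.3%). It was in 42 of 62 in the knockdown (67.7%, 55.4% to 78.0%) and 8 of 20 with azacytidine (40%, 21.9% to 61.3%). With both treatments it was in 10 of 28 (35.7%, 20.7% to 54.2%). The share of BambuTx3502 was higher by 27.1 and 31.7 percentage points with azacytidine, with exact Fisher adjusted p of 0.309 and 0.0662, so neither pair passed. These shares are over all estimated transcript reads. Uniquely assigned reads gave exon shares of 42.9%, 53.3%, 25% and 33.3%, and full-length reads 50%, 45.5%, 40% and 28.6% over only 10, 11, 5 and 7 reads, and with each of these read kinds the intervals of all 4 libraries overlapped.
DNMT3B exon 5, chr20:32786502-32786627, plus strand: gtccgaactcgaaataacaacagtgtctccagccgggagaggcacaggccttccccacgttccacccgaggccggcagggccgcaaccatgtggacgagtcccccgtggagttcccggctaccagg

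DNMT3B also has 2 groups of starts. The downstream start at 32779849 to 32780324 was assigned an estimated 32 of 48 reads in the control (66.7%) and 25 of 62 in the knockdown (40.3%). It held 17 of 20 with azacytidine (85%) and 23 of 28 with both (82.1%). The azacytidine difference was 18.3 percentage points against the control (exact Fisher adjusted p = 0.579) and 41.8 against the knockdown (exact adjusted p = 0.00538). The first pair did not pass, so no start of the gene was called. The RefSeq window at the downstream start held 3 CpG, below the median of 14, and the bases before it contain a CCAAT box in capitals, a promoter element that 34.6% of all windows hold.
DNMT3B downstream start, chr20:32779602-32779848, plus strand: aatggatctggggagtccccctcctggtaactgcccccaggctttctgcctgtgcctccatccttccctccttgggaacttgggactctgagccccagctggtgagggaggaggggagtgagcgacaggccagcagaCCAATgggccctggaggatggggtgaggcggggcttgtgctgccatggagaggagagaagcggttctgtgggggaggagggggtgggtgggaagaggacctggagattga

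**Figure D2:**
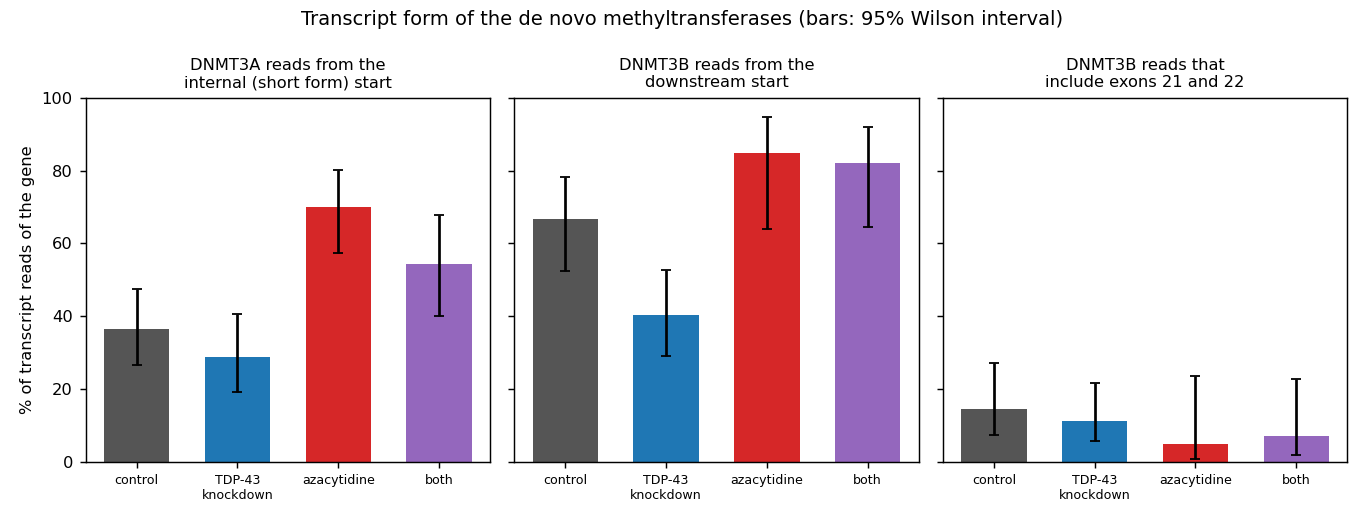
Percent of estimated transcript reads in the 4 libraries, with 95% Wilson intervals. Shown are reads assigned to the DNMT3A internal start, the DNMT3B downstream start, and DNMT3B transcripts with exons 21 and 22. The DNMT3A share was 70.0% and 54.3% with azacytidine and 36.4% and 28.8% without it, and the DNMT3B exon share lay between 5% and 14.6%.

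TET1 (ENSG00000138336.9, chr10:68560337-68694487, hg38, plus strand), an enzyme that oxidises methylcytosine, was highest in the knockdown library. It had 39 reads in the control (64.9 CPM, 46.1 to 88.7), 83 in the knockdown (116 CPM, 92.4 to 144), 29 with azacytidine (59.1 CPM, 39.6 to 84.8) and 18 with both (37.4 CPM, 22.1 to 59.0). The interval of the knockdown library lay above those of the other 3, which overlapped in the order control, azacytidine and both. Reads assigned to transcripts were 32, 42, 18 and 11, which is 82.1%, 50.6%, 62.1% and 61.1% of these gene reads. By sums of those, the knockdown log2 ratio without azacytidine was 0.20 (exact binomial adjusted p = 0.927). The azacytidine log2 ratio was -0.13 against the control (-0.88 to 0.60, exact binomial adjusted p = 0.876) and -1.60 against the knockdown (-2.46 to -0.89, exact binomial adjusted p = 2.12e-05).

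Most TET1 transcript reads were assigned to TET1-201, the full form of 2136 codons, with an estimated 28.9, 39.8, 12.5 and 11 reads. Of these, 84 were uniquely assigned in all and 0 were full-length. An unannotated transcript of 3 exons, BambuTx683, begins at 68600476, 2 bases from a RefSeq start inside the gene, and had 3.10, 2.15, 5.54 and 0 reads. It took 3 of 32 transcript reads in the control, 2 of 42 in the knockdown, 6 of 18 with azacytidine and 0 of 11 with both, which allows a share of up to 27.3%. The azacytidine pairs differed by 24.0 and -4.76 percentage points (exact Fisher adjusted p = 0.342 and 1). It was thus seen in 3 libraries at few reads, with no change that passed.

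TET2 (ENSG00000168769.14, chr4:105145875-105279816, hg38, plus strand), a second enzyme of this kind, had 20 reads in the control (33.3 CPM, 20.3 to 51.4), 40 in the knockdown (55.9 CPM, 40.0 to 76.2), 30 with azacytidine (61.1 CPM, 41.2 to 87.2) and 9 with both (18.7 CPM, 8.54 to 35.5). It was lowest where the treatments were combined, and each treatment alone was above the control with overlapping intervals. The azacytidine log2 ratio was 0.87 against the control (0.01 to 1.77, exact binomial adjusted p = 0.116) and -1.52 against the knockdown (-2.81 to -0.52, exact binomial adjusted p = 0.00809). TET2-207 and TET2-209, of 2023 and 2002 codons, received equal reads, 3.00, 8.29, 5.43 and 0.778 each, and 0 uniquely assigned reads. TET2-201, annotated as a target of nonsense-mediated decay, had 2.04, 9.75, 12.4 and 0 reads. TET2-203 had 3.36, 1.54, 0 and 4.89, and no TET2 transcript share was called.

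TET3 (ENSG00000187605.17, chr2:73984910-74108177, hg38, plus strand), a further member of the family, was higher in both knockdown libraries. It had 42 reads in the control (69.8 CPM, 50.3 to 94.4), 73 in the knockdown (102 CPM, 80.0 to 128), 31 with azacytidine (63.1 CPM, 42.9 to 89.6) and 59 with both (122 CPM, 93.2 to 158). The azacytidine ratios were -0.14 and 0.26 on the log2 scale (exact binomial adjusted p = 0.881 and 0.491). The annotated TET3 forms, TET3-202 of 1795 codons and TET3-201 of 1702 codons, received equal reads, 16, 23.5, 14 and 18 each, and 0 uniquely assigned reads, so the reads did not tell them apart. TET2 and TET3 had 0 full-length reads, and TET1 had 8 of 169, all of BambuTx683.

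MBD2 (ENSG00000134046.12, chr18:54151606-54224669, hg38, minus strand), the reader, had 38 reads in the control (63.2 CPM, 44.7 to 86.7), 28 in the knockdown (39.1 CPM, 26.0 to 56.6), 15 with azacytidine (30.6 CPM, 17.1 to 50.4) and 20 with both (41.5 CPM, 25.4 to 64.1). The control was highest and azacytidine lowest, and all 4 intervals overlapped. The azacytidine log2 ratios were -1.02 (-2.02 to -0.15, exact binomial adjusted p = 0.0744) and 0.09 (-0.82 to 0.96, exact binomial adjusted p = 0.956). Its reads fell into MBD2-201, the form of 7 exons and 411 codons, with 14.5, 6, 8 and 10 reads, and MBD2-205, a form of 3 exons and 302 codons, with 19.5, 17, 7 and 8. The share of MBD2-201 was 44.1%, 26.1%, 53.3% and 55.6%, with no pair past the test.

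**Figure D3:**
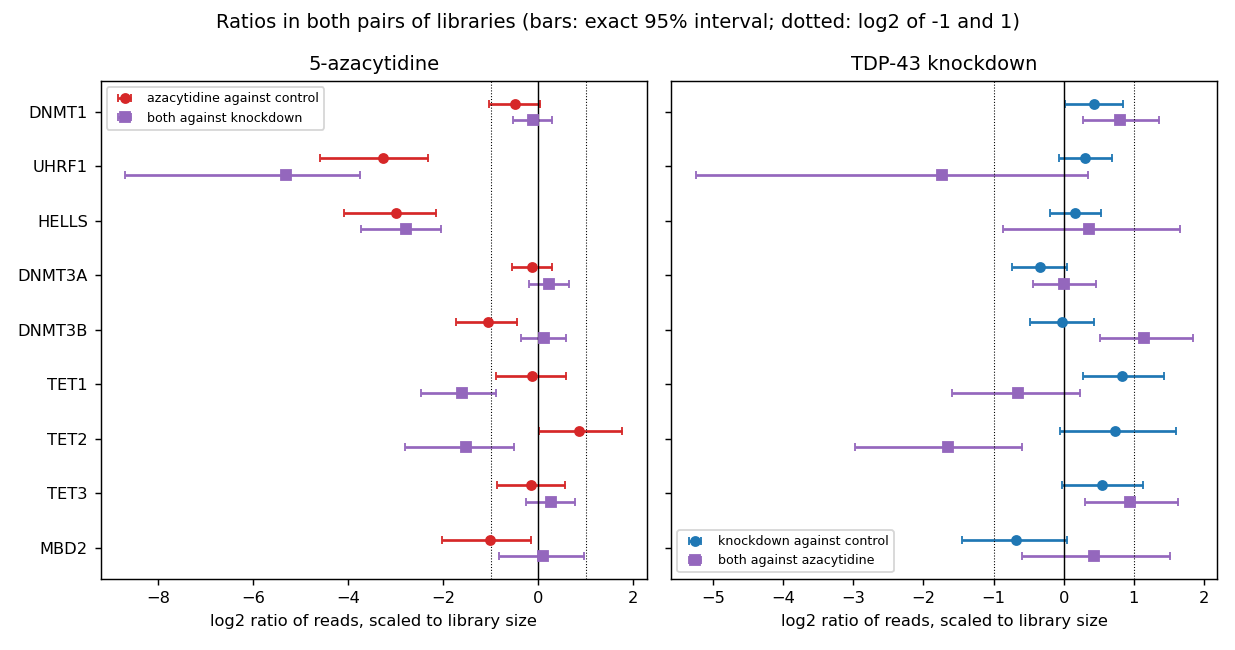
Log2 ratio of each gene in both azacytidine pairs (left) and both knockdown pairs (right), with exact 95% intervals. UHRF1 and HELLS lie below -1 with their whole intervals in both azacytidine pairs, and no gene lies beyond 1 or -1 on the same side in both knockdown pairs.

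Whether TDP-43 knockdown changed these genes was asked in both backgrounds. No member passed the rule. DNMT1 and TET3 were higher in both knockdown pairs at an unadjusted p under 0.05, which makes 2 of 9 where 3.09% of all genes were, with 0 of 9 lower (1.78% of all genes), and additive models in edgeR and DESeq2 called 0. The DNMT1 log2 ratio was 0.43 without azacytidine (exact binomial adjusted p = 0.172) and 0.81 with it (exact binomial adjusted p = 0.0244). That of TET3 was 0.54 (exact binomial adjusted p = 0.203) and 0.94 (exact binomial adjusted p = 0.0337). Over all genes, 48.1% of the 104 knockdown calls were lower with the scaling used and 67.0% with scaling to total counts.

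By the adjusted p alone, 5 genes passed in 1 knockdown pair each: TET1 without azacytidine, and DNMT1, TET3, DNMT3B and TET2 with it. That is, 1 of 9 genes was higher and 0 lower without azacytidine (8.48% and 4.24% of all genes), and 3 were higher and 1 lower with it (5.99% and 4.22%). TET1 was higher without azacytidine (log2 ratio 0.83, exact binomial adjusted p = 0.0252) and -0.65 with it (exact binomial adjusted p = 0.423). TET2 had ratios of 0.73 (exact binomial adjusted p = 0.25) and -1.66 (exact binomial adjusted p = 0.0159). DNMT3B had -0.03 (exact binomial adjusted p = 1) and 1.15 (exact binomial adjusted p = 0.0043). With gene sums of estimated transcript counts, the ratios that passed became 0.20 for TET1, 0.55 for DNMT1 and 0.53 for TET3. They became 0.65 for DNMT3B and -1.31 for TET2. None of the 5 then passed (exact binomial adjusted p = 0.927, 0.579, 0.679, 0.655 and 0.253). Scaled to total counts, TET1 and TET3 did not pass (exact binomial adjusted p = 0.0714 and 0.054), while DNMT1, DNMT3B and TET2 did. UHRF1 and HELLS had knockdown ratios of 0.30 and 0.16 without azacytidine, and their few reads with azacytidine gave -1.74 (-5.25 to 0.35) and 0.36 (-0.87 to 1.66). No transcript or start of the genes was called with the knockdown, where 0.724% and 0.598% were called over all, and 0 had an unadjusted exact Fisher p under 0.05 in both pairs with one direction.

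Partners in methylation maintenance were called in part. Of 8 tested, 3 fell with azacytidine, where 6.19% of all genes did, 0 rose and 5 did not pass, with medians of -1.24 and -0.73 against 0.02 and -0.02 over all genes tested. By an adjusted exact binomial p under 0.05 alone, 5 were lower and 0 higher in the first pair. Over all genes 12.7% and 8.78% were. In the second pair 4 were lower and 0 higher, against 19.5% and 14.5% of all genes. CDCA7, which activates HELLS, had 25, 55, 1 and 1 reads (log2 ratios -3.79, -9.71 to -1.74, and -4.64, -10.5 to -2.67). Its relative CDCA7L had 37, 40, 4 and 1 reads (-2.77 and -4.19). PCLAF, a PCNA-binding factor that is modified by UHRF1, had 28, 20, 1 and 0 reads, with a log2 ratio of -3.96 against the control and a level at least 4.49-fold lower than in the knockdown library. PCNA itself had 27, 21, 9 and 9 reads and did not pass (log2 ratios -1.24 and -0.61, exact binomial adjusted p = 0.0746 and 0.429).

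In the remaining lists few genes were called with azacytidine, where the rule called 2.56% of all genes higher and 6.19% lower. Of 10 demethylation partners tested of 11, 1 rose, the uracil-DNA glycosylase SMUG1, with 30, 45, 65 and 92 reads (log2 ratios 1.40 and 1.59, exact binomial adjusted p = 1.14e-04 and 6.22e-09). Of 9 genes of the methyl donor cycle, SHMT2, a mitochondrial enzyme of one-carbon metabolism, rose with 23, 21, 65 and 53 reads (1.77 and 1.88). MAT2B, a regulatory subunit of S-adenosylmethionine synthesis, fell with 48, 32, 14 and 9 reads (-1.45 and -1.20). None of 9 other methyl-CpG readers, 12 subunits of the NuRD complex that MBD2 recruits, 3 RNA cytosine methyltransferases or 2 tested de novo partners of 3 was called. Their medians were 0.06 and 0.17, -0.17 and 0.10, 0.02 and -0.46, and -0.02 and 0.01. At an adjusted exact binomial p under 0.05 without the size limit, the readers had 1 gene higher and 1 lower in the first pair and 3 and 1 in the second. In the same pairs NuRD had 0 and 1, then 2 and 1. Over all genes, 8.78% were higher and 12.7% lower in the first pair, and 14.5% and 19.5% in the second. With the knockdown no gene of these lists was called, against 0.754% of all genes. At an adjusted exact binomial p under 0.05 alone, both tested de novo partners, the histone methyltransferases NSD1 and SETD2, were higher in both knockdown pairs, with log2 ratios of 0.52 and 1.07 for NSD1 and 1.20 and 0.70 for SETD2. By the same p, 1 demethylation partner was higher without azacytidine and 2 readers with it. NuRD had 0 higher and 1 lower, then 2 and 1. In these pairs 8.48% of all genes were higher and 4.24% lower without azacytidine, and 5.99% and 4.22% with it. At the looser unadjusted exact binomial p under 0.05, 3.09% of all genes were higher in both knockdown pairs.

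**Figure D4:**
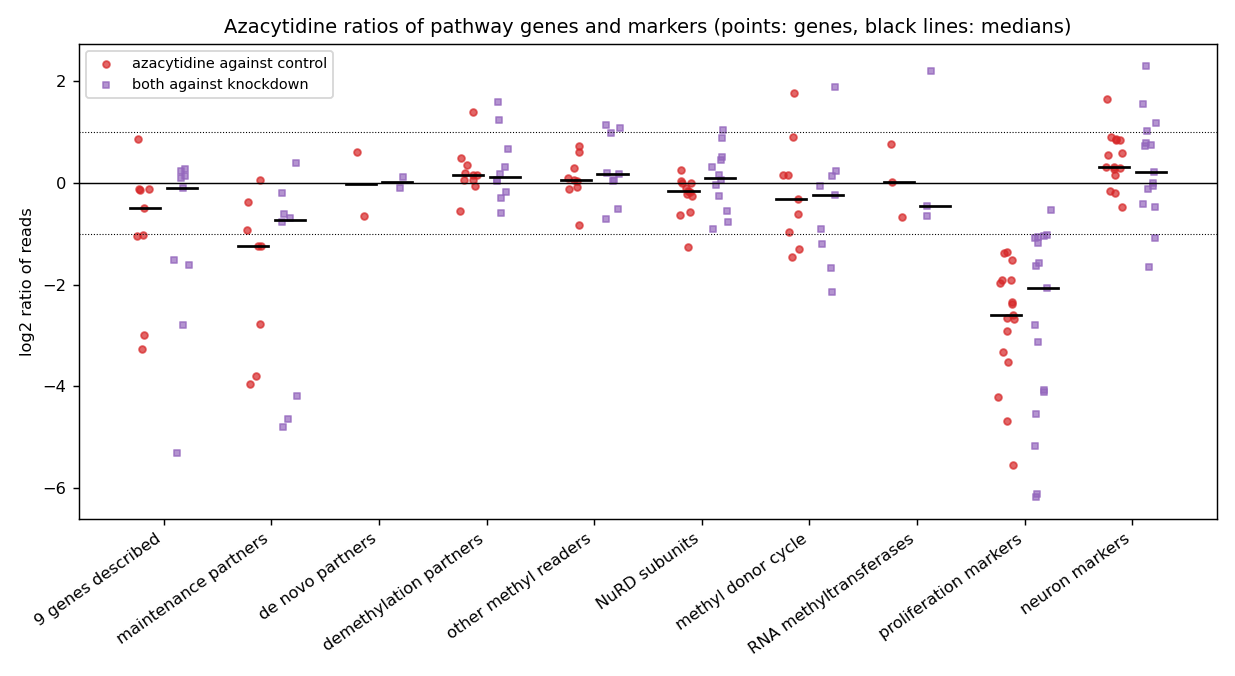
Azacytidine log2 ratio of each tested gene of the pathway lists, the proliferation markers and the neuron markers, in both pairs, with medians as black lines. The proliferation markers have medians of -2.59 and -2.07 and the neuron markers 0.32 and 0.22, and a gene with 0 reads in a library is drawn at its ratio with 0.5 reads added.

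Markers of dividing cells were low in the same libraries as UHRF1 and HELLS. Of 18 proliferation markers 17 were tested, and 10 fell with azacytidine, 0 rose and 7 did not pass. Over all genes, 6.19% fell and 2.56% rose by the same rule. Their summed level was 1636 CPM in the control, 1330 in the knockdown, 244 with azacytidine and 245 with both. MKI67 had 142, 154, 2 and 1 reads, log2 ratios of -5.54 (-8.92 to -3.98) and -6.12 (-12.0 to -4.20). Of 5 neural progenitor markers tested of 9, 3 fell, and the list summed to 843, 707, 169 and 131 CPM. The 15 neuron markers summed to 3462, 3652, 3970 and 3287 CPM, with 1 risen and 0 fallen. Pluripotency markers summed to 604, 661, 391 and 415 CPM with 2 of 5 tested fallen, SALL4 (82, 99, 16 and 19 reads) and DPPA4 (48, 40, 6 and 10 reads), glial markers to 115, 72.7, 73.3 and 51.9 CPM with 1 of 3, and mesenchymal markers to 91.5, 96.5, 18.3 and 6.23 CPM with 1 of 2. The part of these markers in the levels of UHRF1 and HELLS was not tested.

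The genes whose pattern over the 4 libraries was nearest to UHRF1 and HELLS were sought among 8144 others that averaged 20 reads or more. Nearness was the Euclidean distance between log2 CPM values centred on each gene's mean. For UHRF1 they were SGO1 (90, 115, 7 and 2 reads, distance 0.25), which protects the cohesion of sister chromatids, VCAN (240, 438, 24 and 7 reads, 0.27), a matrix proteoglycan, and NOTCH2 (46, 69, 3 and 1 reads, 0.39), a receptor. For HELLS they were SMC4 (158, 218, 17 and 20 reads, 0.09), a condensin subunit, ENSG00000224905 (43, 52, 4 and 5 reads, 0.12), and TFAP2A (34, 43, 3 and 3 reads, 0.29), a transcription factor. The distance between UHRF1 and HELLS themselves was 2.05, larger than these, since UHRF1 was the lower of the pair where both treatments were combined. With 4 libraries such a ranking describes these libraries only.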

How the data were processed

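Column names in the file headers give minimap2 as aligner and hg38 as build, the build that the submitters' processing notes also name, and the deposited annotation gives Bambu as its source; versions were not given in the sources used here. The deposited gene table, transcript table and full-length table hold estimated counts. The deposited table of uniquely assigned reads holds counts. The deposited CPM table, scaled by the authors to the gene table's column sums, was used only to check that.

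Every deposited gene count and unique count was within 0.001 of an even number, so 2 counts were taken as 1 read and all tables were halved; why they are even is not stated. Libraries were scaled with TMM (edgeR 4.0.16, R 4.3.3). Pairs of libraries were compared by an exact binomial test over 13789 genes and transcript shares by Fisher's exact test, with Benjamini-Hochberg adjustment. These tests compare the reads of libraries, not conditions. Intervals (95%) and limits for a count of 0 (3 reads) cover counting error only. DESeq2 1.42.0 served as an alternative. The scripts were tested on simulated data.

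The difference of the azacytidine ratios between backgrounds was tested by Fisher's exact test on the 4 read counts, with the null odds ratio set by library sizes; this test and its alternatives were added after seeing the data. Members and gene lists were chosen with earlier results of these data known. Genes named are the 9 members, called genes of each list (at most 4), MKI67, PCNA, POU5F1, TARDBP and MAP2, the 3 nearest genes of each called member, and member transcripts with at least 5 reads in a library (at most 4 per gene); UHRF1-203, BambuTx683 and DNMT3B-201 and DNMT3B-202 are described under the same tables or as the reference for exon numbers. NSD1, SETD2, LIN28A and the pluripotency markers too low to test were named besides, after their values were seen. Sequences are from RefSeq (promoters) and GENCODE 29 (exons). A comparison of DNMT1 exon use is not reported here.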

Additional observations from a re-analysis of the deposited data

Results flagged for a closer look

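The azacytidine ratio differed between the backgrounds with and without the knockdown for 2 of the 9 genes, where this difference passed for 6.43% of the 13789 genes tested. The test is Fisher's exact test on the 4 read counts with Benjamini-Hochberg adjustment over all genes, and with 1 library in each group it compares these libraries only.

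For TET2 the log2 ratio with the knockdown minus that without it was -2.39 (exact adjusted p = 0.0061), from 20 and 30 reads without the knockdown to 40 and 9 with it. For DNMT3B the same difference was 1.18 (exact adjusted p = 0.044), from 77 and 30 reads to 90 and 66. It was 0.47 with gene sums of estimated transcript counts, 0.55 with full-length and 0.81 with unique sums (exact adjusted p = 1 in each), with ratios of -1.05 and -0.58 for the first of these, and with no filter on low counts it did not pass (exact adjusted p = 0.122). That of TET2 did not pass with estimated sums (-2.10, exact adjusted p = 0.131) or unique sums (-0.87, exact adjusted p = 1). That of TET1 was -1.48 and did not pass (exact adjusted p = 0.0683), and that of UHRF1 was -2.04 (exact adjusted p = 0.279). Groups of 1 library cannot show a library that lies far from its group.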

How the results depend on the processing

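No paired analysis was possible because the groups hold 1 library each and share no replicate numbers, and no replicate could be left out. Additive models of both treatments, with 1 residual degree of freedom, called UHRF1 and HELLS (adjusted p 0.00159 for both in edgeR, 8.62e-05 and 0.00147 in DESeq2). UHRF1 and HELLS were both called with azacytidine under every alternative except full-length sums (1 of 5 members tested, HELLS at -1.84 not called) and uniquely assigned sums (1 of 8, UHRF1 at -2.63 not called). The members called with the knockdown were 0 under all alternatives. Of 206 member ratios under alternatives, given as the mean of both pairs, 8 reversed: with azacytidine, TET2 was 0.87 with unique sums and 0.082 with the length trend removed, MBD2 0.063 with unique sums and DNMT3A -0.069 with sums of estimated transcript counts, which were added after seeing the data. With the knockdown, UHRF1 was 0.20 with full-length and 0.41 with unique sums, and TET1 -0.082 with the length trend removed and -0.16 with estimated sums. Differences between backgrounds reversed for DNMT3A (-0.32 with full-length and -0.20 with unique sums) and HELLS (-0.044 with unique sums), and without halving those of UHRF1 and TET1 passed. With the length trend removed, single pairs with azacytidine gave 0.87 for TET3 (adjusted p = 0.00451), 0.60 for DNMT3A (adjusted p = 0.0196), and 1.16 and -0.995 for TET2 (adjusted p = 0.0314 and 0.115). With the knockdown, DNMT3A then passed in the first pair (-0.56, adjusted p = 0.0375) and TET1 did not (0.54, adjusted p = 0.241). The causes were not tested.

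Azacytidine calls over all genes moved from 1207 to 44 (full-length sums), 278 (unique sums), 581 (estimated sums) and 184 (additive DESeq2). Knockdown calls moved from 104 to 313 without halving, 5, 13 and 12 with the same sums, and 12 and 6 in the additive edgeR and DESeq2 models; removing the length trend left 36.2% of them lower. Member usage calls with azacytidine moved from 1 to 0 with full-length and with unique counts and to 3 without halving, for transcripts and for starts alike, and to 0 with starts grouped within 1000 bases. Scaling to total counts moved the median log2 ratio of all genes from -0.02 to 0.09 (both against knockdown) and from 0.03 to -0.09 (knockdown against control); it turned the DNMT1 ratio of -0.11 to 0.01 and the DNMT3A ratio of 0.01 (both against azacytidine) to -0.05. TET2 and TET3 had 0 full-length reads, so no full-length value could be given for them.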
